A study of Mus musculus with 4 samples.

Results

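The genes described are 251 mouse zinc finger genes whose symbol is Zfp followed by a number and whose array signal lay at or above the median. They were chosen from 302 such genes on the array, after Zfp42, Zfp296 and the Zfp36 genes were set aside, and are 251 of 18193 genes measured. Each gene was read from its brightest probe set, taken by mean log2 signal over all arrays. It was kept where that mean reached the median of all probe sets, equal to a signal of 71.8. Signal, the unit used throughout, is array brightness on a linear scale.

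The Chd4 RNAi group (n = 2 arrays) came from J1 mouse embryonic stem cells of the inducible line Chd4i-1 given 5 ng/ml doxycycline for 3 days. The control group (n = 2) was the same line left without doxycycline. Both groups therefore carry the RNAi construct, were grown on gelatin with serum and leukaemia inhibitory factor, and derive from 1 line. A line without the construct given doxycycline was not analysed here, so effects of doxycycline, of the RNAi and of Chd4 loss cannot be told apart.

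Most Zfp genes encode proteins with arrays of C2H2 zinc fingers, small zinc-bound folds that read DNA sequence. Many carry a KRAB domain, which recruits the co-repressor KAP1 (Trim28) and, through it, the H3K9 methyltransferase Setdb1 and HP1 proteins. In embryonic stem cells KRAB zinc finger proteins are known for silencing endogenous retroviruses and for keeping methylation at imprinted loci, and their genes lie in clusters of related copies. Other Zfp genes serve as activators, RNA-binding proteins or ubiquitin ligases. Chd4 is the ATPase of NuRD, a complex that joins nucleosome remodelling to histone deacetylation.

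Chd4 itself gave signals of 445 and 394 in the Chd4 RNAi arrays, against 918 and 814 in the control arrays, at its most reduced probe set, or 48.5% of control. Its other probe sets stood at 56.1% and 65.0% of control. All 8 embryonic stem cell markers examined, Pou5f1, Sox2 and Nanog among them, had a mean signal at or above the median, and 2 of them were called higher and 2 lower. Klf4 was among the lower, with 9730 and 9380 in Chd4 RNAi against 10953 and 11777 in control. Esrrb also read lower, at 4169 and 4330 against 5142.5 and 5245. Dppa5a read higher in Chd4 RNAi, at 28361 and 26856 against 23764 and 24561, as did Utf1, at 3673.5 and 3623 against 3117 and 2769. The summed signal of 6 fibroblast markers was 767 and 659 in Chd4 RNAi arrays and 319 and 386 in control arrays. This sum followed Thy1, with 601 and 547 in Chd4 RNAi against 176 and 200 in control, while the collagen genes Col1a1 and Col3a1 reached at most 40.8 on any array. The collagen gene Col1a2 gave 83.4 and 50.4 in Chd4 RNAi and 47.9 and 61.5 in control. The dim Postn and Lum went the other way from Thy1. Postn gave 2.30 and 1.12 in Chd4 RNAi against 27.1 and 12.7 in control, and Lum 25.1 and 4.93 against 27.1 and 52.7. The summed signal of 5 primitive endoderm markers was 297 and 259 in Chd4 RNAi against 227 and 224 in control, and none of them reached the median. In 5 trophectoderm markers it was 559 and 486 against 350 and 451, and in 3 neural ectoderm markers 233 and 190 against 358 and 435. These sums followed Krt7, with 250 and 217 in Chd4 RNAi against 69.4 and 72.7 in control, and Sox1, with 21.3 and 5.40 against 129 and 183. Against the direction of their sums, the trophectoderm marker Elf5 gave 5.31 and 11.7 against 26.6 and 60.8. The primitive endoderm marker Sox17 likewise gave 24.3 and 8.22 against 46.4 and 43.0. The part of these shifts in the results below was not tested.

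Zfp transcripts moved mostly by small amounts, and more of them lay below control than above. Of the 251 genes, 34 fell and 20 rose at an adjusted p under 0.05 (limma, Benjamini-Hochberg over all 12615 genes tested). The background of that test was 20.5% of genes in either direction, 8.81% lower and 11.7% higher. It is also set beside the gene lists below, and it includes dimmer genes, down to a signal of 42.4. Among the 10824 other genes at or above the median signal, 9.84% were called lower and 12.9% higher. The shares among the Zfp genes were 21.5% in either direction, 13.5% lower and 7.97% higher. The total share was thus close to the background, with the larger part of the calls on the lower side. A log2 difference below 0 was found for 169 Zfp genes (67.3%), against 6069 of all genes tested (48.1%). The median log2 difference was -0.12 over the Zfp genes and 0.014 over all genes tested. The 2 groups did not overlap for 147 Zfp genes (58.6%), beside a background of 60.6%.

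**Figure D1:**
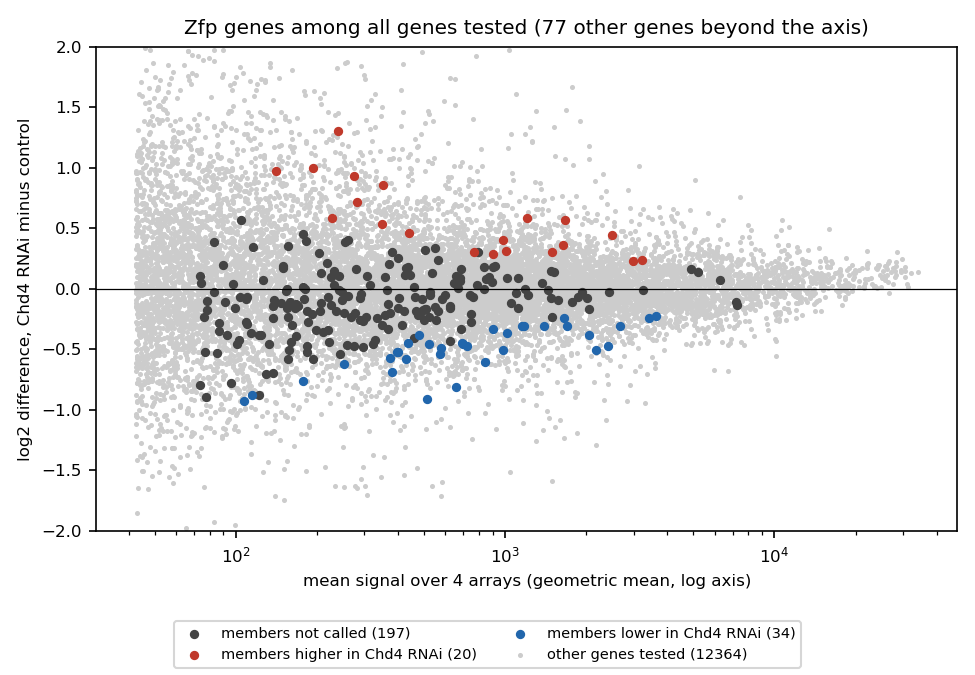
Each point is 1 gene, with its mean signal over 4 arrays on a log axis and its log2 difference, Chd4 RNAi minus control, on the vertical axis. The 20 Zfp genes called higher are red, the 34 called lower are blue, the 197 not called are dark grey and the 12364 other genes tested are light grey. Only 1 Zfp gene passed with a change of 2-fold or more.

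The changes were small beside those elsewhere on the array. A single Zfp gene passed with at least a 2-fold change, whereas 462 genes (3.66%) did so over the whole table. Called falls ran between log2 differences of -0.23 and -0.93, and called rises between 0.23 and 1.30. In all, 8 of the falls and 7 of the rises reached 1.5-fold. In bulk RNA, fewer cells expressing a gene and less RNA per cell cannot be told apart.

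**Figure D2:**
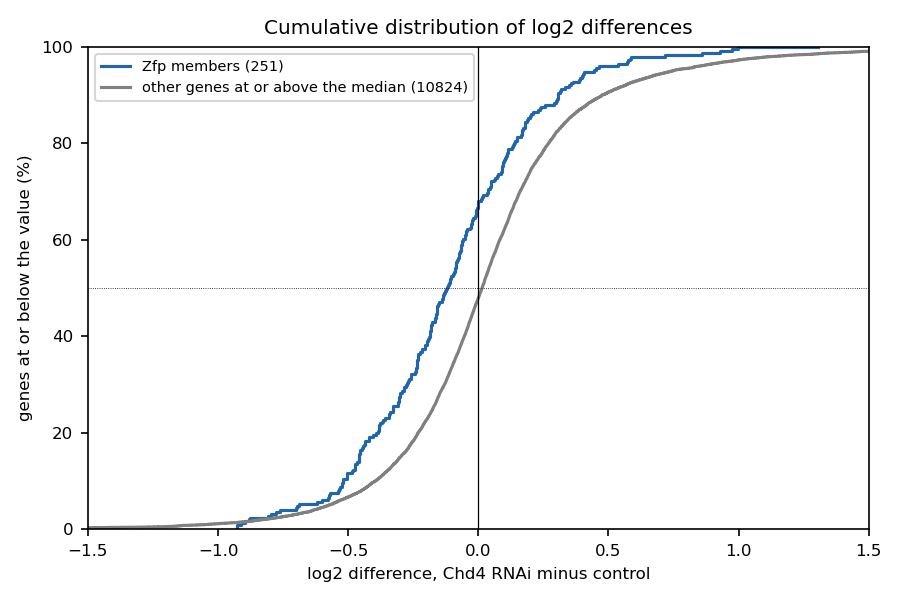
The curves give the share of genes, in percent, at or below each log2 difference, Chd4 RNAi minus control, for the 251 Zfp genes (blue) and the 10824 other genes at or above the median signal (grey). The Zfp curve lies left of the other over most of its length, crossing 50% at a log2 difference of -0.12.

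The lower position of the Zfp genes was seen at every signal level, while the share called depended on brightness. Among the 73 dimmest Zfp genes (signal under 200), 78.1% lay below 0, against 45.2% of the 2293 other genes of that range. Of these, 3 (4.11%) fell and 2 (2.74%) rose in the test, against 3.88% and 9.77% of the other genes. In the 81 genes between 200 and 500, 65.4% lay below 0, against 48.3% of other genes. Here 9.88% of Zfp genes were called lower and 8.64% higher, against 8.37% and 12.2% of the other genes. Of the 97 Zfp genes with a signal of 500 or more, 60.8% lay below 0, against 48.7% of the other genes. In that brightest range 23.7% of Zfp genes were called lower and 11.3% higher, against 12.6% and 14.4% of the other genes. The ranges were set after the values were seen, and these shares are descriptions without a test.

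**Figure D3:**
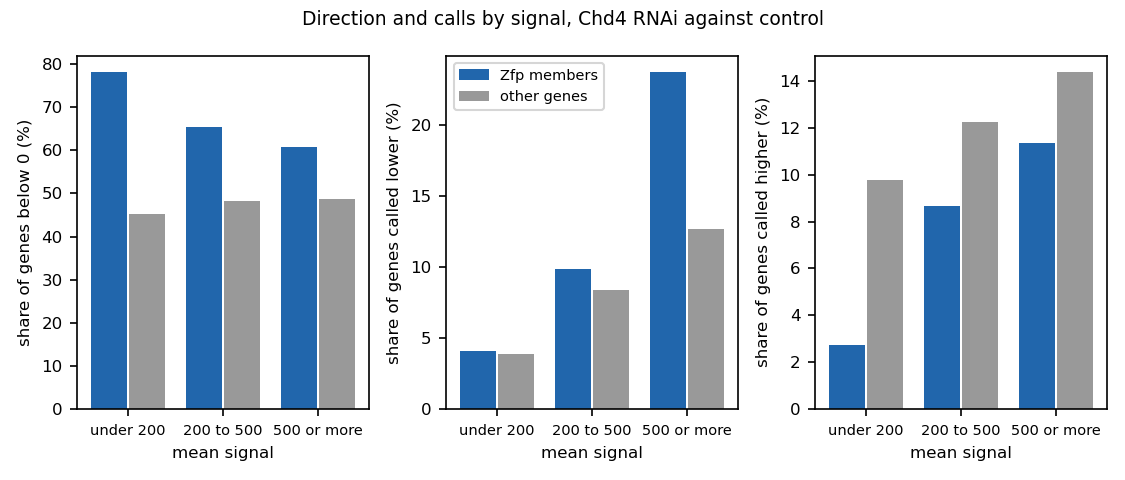
Bars give the share of genes in percent, in 3 ranges of mean signal, that had a log2 difference below 0 (left), were called lower in Chd4 RNAi (centre) or were called higher (right). Blue bars are Zfp genes and grey bars other genes at or above the median. The share below 0 is larger for Zfp genes in each range, at 78.1%, 65.4% and 60.8%.

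The firmest single change was a fall of Zfp423, which encodes a multi-finger partner of Ebf factors and Smads that acts in neural and fat cell development. Its signals were 384 and 362 in Chd4 RNAi, against 674 and 732 in control. Both Chd4 RNAi arrays lay below both control arrays. The gene was 1.88-fold lower (log2 -0.91 ± 0.12 SE, adjusted p = 0.000365 in limma). Among the 54 called Zfp genes it alone passed in each of the 13 other ways of fitting that were tried. Zfp423 has 1 probe set, so averaging of probe sets could not change its difference, and there is no second reading. Its signals all lay above the median, so the floor at the median could not change the difference either. The gene is on chromosome 8 of the annotation. The 200 bases just before its first listed start are shown because its adjusted p in limma was the lowest among the members. RefSeq places them in GRCm38.p6 at chr8:87959596-87959795, minus strand, and capitals mark GGGCGG, the core letters read by SP and KLF factors.
Zfp423: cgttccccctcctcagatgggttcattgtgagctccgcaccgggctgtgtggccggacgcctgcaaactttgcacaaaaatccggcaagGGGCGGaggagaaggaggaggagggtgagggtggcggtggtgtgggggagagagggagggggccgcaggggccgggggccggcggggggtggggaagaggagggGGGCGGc
The stretch is 70.5% G and C and holds the GGGCGG letters at 2 places.

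Falls were spread over genes of known and unknown function. Zfp934 had 521 and 470 in Chd4 RNAi, against 842 and 892 in control, a 1.75-fold lower level (log2 -0.81 ± 0.11 SE, adjusted p = 0.00047). Its neighbour Zfp935 gave 95.1 and 76.1 in Chd4 RNAi, against 165 and 149 in control (adjusted p = 0.0388). Both pairs of groups were apart, but the probe set of Zfp935 is of the _x_at kind, which can bind related transcripts. Zfp189 had the largest fall, with 80.0 and 76.2 in Chd4 RNAi and 152 and 144 in control (log2 -0.93 ± 0.27 SE, adjusted p = 0.0323). Its call ended when any 1 array was left out, at adjusted p between 0.0585 and 0.15.

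Zfp800, which in mice is needed for endocrine cells of the pancreas, read 143 and 129 in Chd4 RNAi, against 239 and 222 in control (log2 -0.76 ± 0.20 SE, adjusted p = 0.0216). Its other 4 probe sets with signal past the filter were lower too, at log2 differences of -1.03 to -1.55. Its call ended when Chd4 RNAi replicate 2 was left out (log2 -0.69, adjusted p = 0.0687), and likewise for control replicate 1 (-0.71, adjusted p = 0.115) and control replicate 2 (-0.81, adjusted p = 0.0699). With its probe sets averaged the difference was -1.29 (adjusted p = 0.0606). Zfp365, which encodes a centrosomal protein, gave 329 and 272 in Chd4 RNAi and 498 and 467 in control (1.61-fold lower, adjusted p = 0.00667). A second probe set of Zfp365 was lower as well, with a log2 difference of -0.92 (adjusted p = 0.0360 over all probe sets). The fall of Zfp365 held without each array in turn.

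Zfp62 had 338 and 363 in Chd4 RNAi, against 564 and 482 in control, and a second probe set showed 273 and 264 against 544 and 570. That second reading was the larger, with a log2 difference of -1.05 beside -0.58 at the brightest probe set (adjusted p = 0.0118). The call of Zfp62 ended without control replicate 1 (log2 -0.46, adjusted p = 0.101). Zfp141 gave 655 and 709 in Chd4 RNAi and 969 and 1105 in control (1.52-fold lower, adjusted p = 0.00222), and held without each array in turn. The remaining genes among the 15 largest falls were Zfp595, Zfp160, Zfp37, Zfp667, Zfp367 and Zfp961, with log2 differences between -0.62 and -0.50, and Zfp809, described below. Of these, Zfp595 lost its call without Chd4 RNAi replicate 2 (adjusted p = 0.0775) and control replicate 2 (adjusted p = 0.15), and Zfp37 without Chd4 RNAi replicate 1 (adjusted p = 0.0961) and control replicate 2 (adjusted p = 0.183). Zfp160 lost it without control replicate 1 (adjusted p = 0.0616), Zfp667 without control replicate 2 (adjusted p = 0.0902) and Zfp367 likewise (log2 -0.37, adjusted p = 0.065). Zfp961 held throughout, at 1622 and 2076 in Chd4 RNAi against 2569 and 2632 in control, with a log2 difference of -0.50 that became -0.32 without Chd4 RNAi replicate 1. Its dim second probe set pointed the other way, so that their average gave -0.0048.

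**Figure D4:**
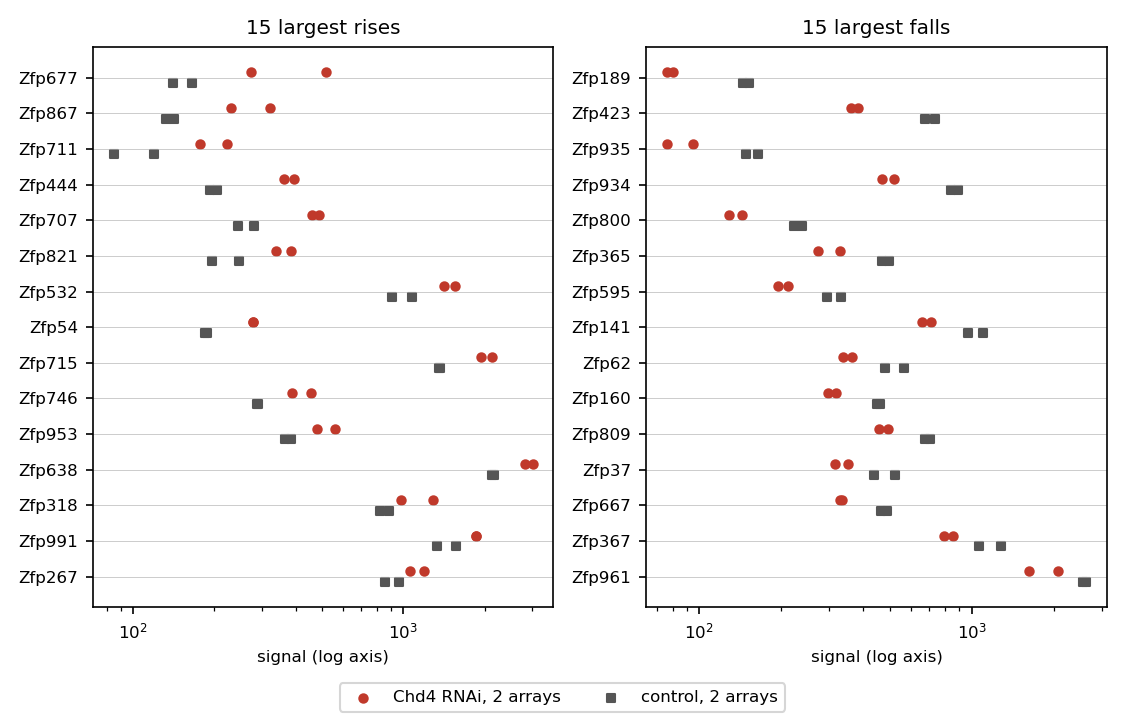
Signals of the 15 Zfp genes with the largest called rises (left) and the 15 with the largest called falls (right) are plotted on a log axis, with red circles for the 2 Chd4 RNAi arrays and grey squares for the 2 control arrays. In every gene shown the groups do not overlap, and only Zfp677 rose by more than 2-fold.

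Rises were fewer and included the largest change of the family. Zfp677, a gene on chromosome 17, had 520 and 273 in Chd4 RNAi, against 165 and 141 in control. The groups were apart, although the Chd4 RNAi arrays differed widely from each other. The rise was 2.47-fold (log2 1.30 ± 0.26 SE, adjusted p = 0.00533), and without Chd4 RNAi replicate 1 the log2 difference was 0.84 (adjusted p = 0.0375). Zfp867 gave 322 and 231 in Chd4 RNAi against 132 and 142 in control (1.99-fold, adjusted p = 0.00772), and its call ended without Chd4 RNAi replicate 1 (log2 0.76, adjusted p = 0.0718). Zfp711, an X-linked relative of Zfx, gave 177 and 222 in Chd4 RNAi and 84.7 and 120 in control (1.97-fold, adjusted p = 0.0217). The call of Zfp711 ended without Chd4 RNAi replicate 2 (adjusted p = 0.123) or control replicate 1 (adjusted p = 0.106).

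Zfp444 read 394 and 363 in Chd4 RNAi, against 192 and 205 in control, a 1.91-fold rise (log2 0.93 ± 0.16 SE, adjusted p = 0.00211). Its 2 other probe sets pointed up with smaller or noisier differences, and the average of the probe sets gave 0.61 (adjusted p = 0.117). Zfp707 gave 489 and 461 in Chd4 RNAi and 280 and 244 in control (1.81-fold, adjusted p = 0.00188). Both genes held without each array in turn. Zfp715 gave 1942 and 2122 in Chd4 RNAi, against 1358 and 1371 in control, so that one of the brighter members rose 1.49-fold with little spread (adjusted p = 0.000494). Zfp821 read 340 and 385 in Chd4 RNAi and 247 and 195 in control (adjusted p = 0.0136), and its call ended without Chd4 RNAi replicate 2 (adjusted p = 0.0704) or control replicate 2 (adjusted p = 0.0826). Zfp746, which encodes PARIS, a repressor of the metabolic co-activator gene Ppargc1a, gave 386 and 456 in Chd4 RNAi and 287 and 291 in control (adjusted p = 0.0244). The call of Zfp746 ended without Chd4 RNAi replicate 2 (adjusted p = 0.144), control replicate 1 (adjusted p = 0.0749) or control replicate 2 (adjusted p = 0.0689).

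Several called rises with log2 differences of 0.58 or less lost their calls when arrays were left out, although Zfp715 and Zfp638, in the same range, held. Zfp54 read 278 and 277 in Chd4 RNAi against 184 and 187 in control (adjusted p = 0.0346), and lost its call when any array was left out, at adjusted p between 0.0958 and 0.107. Zfp953 lost its call without Chd4 RNAi replicate 1 (adjusted p = 0.173) and without either control array (adjusted p = 0.0616 and 0.113). Zfp991 lost it without control replicate 1 (adjusted p = 0.11), and Zfp267 without Chd4 RNAi replicate 1 (adjusted p = 0.232) or control replicate 1 (adjusted p = 0.248). In total, 17 of the 54 calls held without each array in turn, 11 of them falls and 6 rises. The falls were Zfp110, Zfp141, Zfp266, Zfp275, Zfp365, Zfp369, Zfp423, Zfp760, Zfp809, Zfp934 and Zfp961, and the rises Zfp444, Zfp532, Zfp638, Zfp677, Zfp707 and Zfp715.

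Genes known to repress retroelements or guard imprints changed in both directions. Of 7 such members, 3 (42.9%) fell, 1 (14.3%) rose and 3 did not pass, with a median log2 difference of -0.24. The background over all genes tested was 8.81% lower and 11.7% higher. Zfp809, which starts the silencing of murine leukaemia virus and related endogenous proviruses in embryonic stem cells, had 492 and 456 in Chd4 RNAi, against 705 and 674 in control. It was 1.45-fold lower (log2 -0.54 ± 0.11 SE, adjusted p = 0.00615), with each Chd4 RNAi array below both control arrays. Zfp445, which acts with Zfp57 in imprint maintenance, read 3109 and 3168 in Chd4 RNAi and 3554 and 3883 in control (1.18-fold lower, adjusted p = 0.0231). Its 2 other probe sets pointed the same way. Zfp932, a repressor of the ERVK class of retroviruses, gave 781 and 827 in Chd4 RNAi and 957 and 1064 in control (1.25-fold lower, adjusted p = 0.0354).

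Zfp568, which represses a placental transcript of Igf2, gave 3451 and 3042 in Chd4 RNAi, against 2793 and 2736 in control (log2 0.23, adjusted p = 0.0465). Zfp57 itself, the best known guardian of imprints, read 306 and 327 in Chd4 RNAi and 420 and 358 in control, with groups apart but no call (log2 -0.29 ± 0.15 SE, adjusted p = 0.186). Zfp819 and Zfp708 had log2 differences of 0.18 and 0.35 and did not pass (adjusted p = 0.349 and 0.51). The calls of Zfp445 and Zfp932 ended without Chd4 RNAi replicate 1 (adjusted p = 0.0686 and 0.123) and without control replicate 2 (adjusted p = 0.172 and 0.221). That of Zfp568 ended without Chd4 RNAi replicate 1 (log2 0.14, adjusted p = 0.27), control replicate 1 (adjusted p = 0.0959) or control replicate 2 (adjusted p = 0.145). It was also lost with its probe sets averaged (0.14, adjusted p = 0.326). Only Zfp809 of this list held without each array.

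In a separate list of 19 genes tied to KAP1 silencing, KAP1 itself included, 5 rose (26.3%) and 1 fell (5.26%). The background was 11.7% higher and 8.81% lower over all genes tested. All of the list but Cbx3 had a mean signal of 500 or more. In that range 14.4% of the genes other than Zfp members were called higher and 12.6% lower. Mphosph8, a subunit of the HUSH silencing complex, gave 5029 and 5178 in Chd4 RNAi and 3433 and 3416 in control (log2 0.58 ± 0.057 SE, adjusted p = 6e-05). Trim28, the KAP1 co-repressor, gave 14683 and 13858 in Chd4 RNAi and 12138 and 12248 in control (log2 0.23, adjusted p = 0.00721). The demethylase gene Kdm1a had a log2 difference of 0.26 (adjusted p = 0.0046) and the deacetylase gene Hdac2 one of -0.32 (adjusted p = 0.00388). Mphosph8, Kdm1a and Hdac2 were read by _s_at probe sets and Trim28 by an _x_at probe set. Both kinds can bind related transcripts, and the other probe sets of these genes are not given here. Setdb1 and the HP1 genes, named above as recruited through KAP1, did not pass. Their log2 differences were 0.018 for Setdb1, -0.075 for Cbx1, -0.087 for Cbx5 and 0.040 for the dimmer Cbx3. The median of this list was 0.075, beside 0.014 over all genes tested and -0.12 over the Zfp genes. The difference between these medians was not tested.

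Of 6 Zfp genes on a list for embryonic stem cell regulation, 1 (16.7%) fell and none rose in limma. The background was 20.5% in either direction, and the median log2 difference of the 6 was -0.034. Zfp281, which controls the exit from naive pluripotency and is known to bring NuRD to the Nanog gene, gave 5218 and 5191 in Chd4 RNAi, against 4744 and 4527 in control (log2 0.17 ± 0.056 SE, adjusted p = 0.0577). Its groups were apart, and it passed under quantile normalization and with only the top 40% of probe sets. Zfp207, a spindle assembly factor, gave 6947 and 6914 in Chd4 RNAi and 7820 and 7424 in control (log2 -0.14, adjusted p = 0.0909), and 3 of its 5 other probe sets pointed the other way. Zfp462, a partner of HP1 in heterochromatin, was at -0.022 and Zfp217, a CoREST partner, at 0.15, and neither passed (adjusted p = 0.862 and 0.238).

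The gene of that list that fell was Zfp110, which encodes NRIF, an interactor of the neurotrophin receptor p75. A role of Zfp110 in embryonic stem cells was not examined here. It read 1715 and 1879 in Chd4 RNAi against 2315 and 2370 in control (1.30-fold lower, adjusted p = 0.00422). Both of its other probe sets were lower too, at log2 differences of -0.28 and -0.64. Zfp219 had a log2 difference of -0.046 with overlapping groups (adjusted p = 0.855).

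Among 9 members tied to chromatin complexes, 1 (11.1%) rose and none fell, beside 11.7% higher and 8.81% lower over all genes tested. That was Zfp532, which in human cells forms a complex with the products of the genes related to Zfp592, Zfp687 and Zmynd8. Zfp532 gave 1416 and 1550 in Chd4 RNAi, against 1073 and 909 in control (log2 0.59 ± 0.099 SE, adjusted p = 0.00205). It held without each array in turn. Its partners did not pass, with log2 differences of -0.064 for Zfp592 and 0.11 for Zfp687 (adjusted p = 0.894 and 0.567).

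Zfp410, known as a direct and highly selective activator of the Chd4 gene, read 1256 and 1647 in Chd4 RNAi and 1529 and 1498 in control. The groups overlapped (log2 -0.074, 95% interval -0.32 to 0.17, adjusted p = 0.697). A dimmer probe set of Zfp410 gave 343 and 425 in Chd4 RNAi against 498 and 496 in control and did not pass (log2 -0.38, adjusted p = 0.102 over all probe sets). Zfp827, whose human counterpart brings NuRD to telomeres, had 166 and 149 in Chd4 RNAi and 205 and 151 in control (adjusted p = 0.675). The remaining members, Zfp451, Zfp644, Zfp335 and Zfp653, had log2 differences between -0.28 and 0.11, and none passed.

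Zfp genes whose products act on RNA or ribosomes gave 2 rises (20.0%) and 1 fall (10.0%) among 10, with a median log2 difference of 0.081. Of all genes tested, 11.7% rose and 8.81% fell. Zfp638, which encodes the nucleic acid binding protein NP220, had 2828 and 3010 in Chd4 RNAi, against 2167 and 2123 in control (1.36-fold higher, log2 0.44 ± 0.068 SE, adjusted p = 0.00106). The rise held without each array in turn, and 1 of its 2 other probe sets with signal past the filter pointed down. The average over all 4 of its probe sets was 0.16 (adjusted p = 0.529). Zfp318, a regulator of immunoglobulin transcript choice in B cells, rose to 982 and 1290 in Chd4 RNAi, against 817 and 888 in control (adjusted p = 0.0402). Its call ended without Chd4 RNAi replicate 2 (log2 0.21, adjusted p = 0.268) or control replicate 1 (adjusted p = 0.137), and with probe sets averaged (0.17, adjusted p = 0.607).

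Zfp330, a nucleolar protein gene, was 1.17-fold lower at 3337 and 3401 in Chd4 RNAi against 3823 and 4056 in control (adjusted p = 0.0245). This call ended without Chd4 RNAi replicate 1 (adjusted p = 0.0757) or control replicate 2 (adjusted p = 0.155). The bright gene Zfp622, needed for maturation of the large ribosomal subunit, had a log2 difference of 0.071 and the RNA-binding protein gene Zfp106 one of 0.14 (adjusted p = 0.374 and 0.129). Zfp598, whose product marks collided ribosomes, was at 0.092 and Zfp593, another factor of the large subunit, at -0.085. Zfp326, of a complex that links transcription to splicing, came nearest among those that did not pass (log2 -0.23, adjusted p = 0.0642).

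Of 5 members known from development, 1 rose (20.0%), 1 fell (20.0%) and 3 did not pass. The background was 11.7% higher and 8.81% lower. The fall was that of Zfp423. Its close relative Zfp521, known in blood and neural progenitors, read 230 and 188 in Chd4 RNAi, against 166 and 139 in control, and did not pass (log2 0.45 ± 0.21 SE, adjusted p = 0.163). The difference between these relatives was not tested. Zfp516, an activator of brown fat genes, gave 866 and 834 in Chd4 RNAi and 680 and 698 in control (log2 0.30, adjusted p = 0.0482). Its call ended when any array was left out, at adjusted p between 0.0879 and 0.17, although a second probe set was higher by a log2 of 0.58. Zfp148 and the ubiquitin ligase gene Zfp91 had log2 differences of 0.0096 and -0.052.

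The Zfp genes lie close together in the mouse annotation, and neighbours moved both together and apart. On the GRCm38.p6 gene order, 147 of the 251 sat in 36 runs with at most 5 other protein-coding genes between one member and the next. Of 111 neighbouring pairs within runs, 60 (54.1%) had the same sign of difference. As 67.3% of the 251 lay below 0, unrelated members would also often share a sign, and no comparison with such pairs was made. In 7 pairs both genes were called, and in 2 of these they moved the same way. Those were Zfp935 with Zfp934, both lower, and Zfp677 with Zfp54, both higher. Zfp935 was read only by an _x_at probe set, which can bind related transcripts, so its pair may not be 2 separate readings.

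The other pairs moved in opposite directions. On chromosome 13, Zfp595 fell by 0.62 on the log2 scale while Zfp953, with no protein-coding gene between them, rose by 0.46. On chromosome 17, Zfp160 fell (log2 -0.57) ahead of Zfp677, and Zfp51 fell (-0.38) next to Zfp54. On chromosome 7, Zfp444 rose (0.93) and Zfp667 fell (-0.52), and Zfp715 rose (0.57) and Zfp936 fell (-0.30). The call of Zfp51 ended without any 1 of the arrays (adjusted p between 0.0725 and 0.153) and that of Zfp936 without either control array (adjusted p = 0.0532 and 0.0583).

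**Figure D5:**
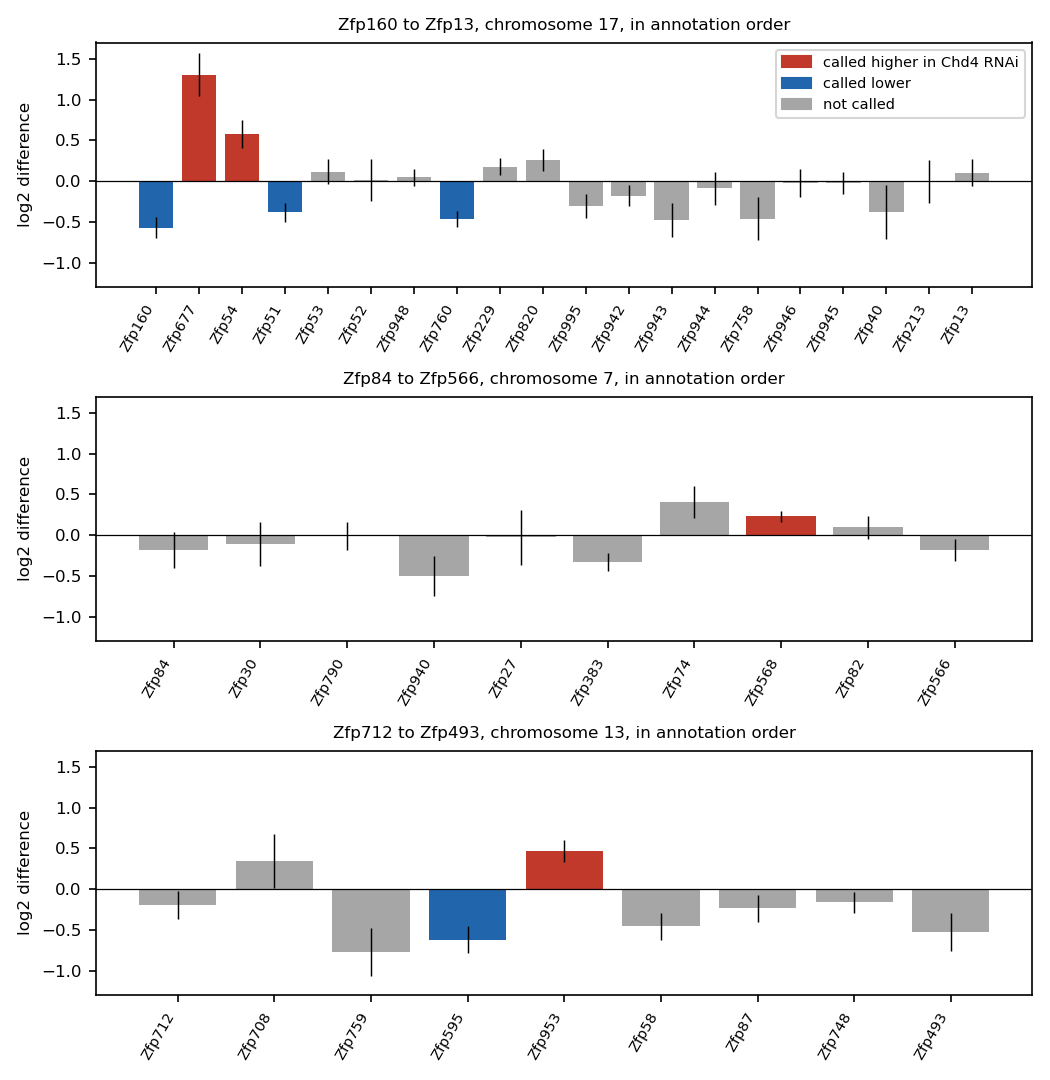
Bars give the log2 difference, Chd4 RNAi minus control, of the members in the 3 longest runs of neighbouring Zfp genes, in annotation order, and lines give ± 1 standard error from the fit. Red bars were called higher, blue bars lower and grey bars not called. The run from Zfp160 to Zfp13 on chromosome 17 holds 3 called falls and 2 called rises, and the run from Zfp712 to Zfp493 on chromosome 13 holds a fall beside a rise.

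The longest run, on chromosome 17, held 20 members between Zfp160 and Zfp13, with 3 falls, 2 rises and a median log2 difference of -0.027. The run of 10 between Zfp84 and Zfp566 on chromosome 7 held 1 rise, that of Zfp568, and no called fall. By chromosome, the 17 members on chromosome 13 were lowest among chromosomes with at least 10 members, with a median log2 difference of -0.46, of which 5 fell and 1 rose. The other 441 genes tested on that chromosome had a median of -0.056. The 64 members on chromosome 7 had a median of -0.15, with 6 falls and 3 rises, and the 36 on chromosome 17 one of -0.077, with 5 falls and 3 rises. Beside these counts by run and chromosome, 8.81% of all genes tested were called lower and 11.7% higher. Chromosome 13 was singled out as the lowest after the values were seen. These values describe the members and carry no test.

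The 200 bases before the first listed starts of neighbours that moved together or apart are shown to set them side by side. Positions are those of RefSeq in GRCm38.p6, and capitals mark, on either strand, the GGGCGG letters again, the CCAAT box or the motif CCGGAAG, core letters read by ETS factors. On chromosome 17 the sequences are chr17:21008741-21008940 for Zfp160, which fell, and chr17:21383548-21383747 and chr17:21423027-21423226 for Zfp677 and Zfp54, which rose, all on the plus strand.
Zfp160: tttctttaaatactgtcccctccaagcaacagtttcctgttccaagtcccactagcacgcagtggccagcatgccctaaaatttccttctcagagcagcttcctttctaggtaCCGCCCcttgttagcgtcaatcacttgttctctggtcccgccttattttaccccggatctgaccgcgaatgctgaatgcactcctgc
Zfp677: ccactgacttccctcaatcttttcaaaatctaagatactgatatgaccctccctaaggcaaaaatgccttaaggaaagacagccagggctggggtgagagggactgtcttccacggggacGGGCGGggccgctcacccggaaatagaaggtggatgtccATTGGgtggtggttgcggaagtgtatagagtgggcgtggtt
Zfp54: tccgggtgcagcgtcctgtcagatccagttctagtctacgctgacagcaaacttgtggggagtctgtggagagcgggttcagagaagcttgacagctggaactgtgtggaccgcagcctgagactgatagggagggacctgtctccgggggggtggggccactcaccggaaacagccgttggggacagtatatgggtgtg
On chromosome 7 they are chr7:43177390-43177589, plus strand, for Zfp936, which fell, and chr7:43313301-43313500, minus strand, for Zfp715, which rose.
Zfp936: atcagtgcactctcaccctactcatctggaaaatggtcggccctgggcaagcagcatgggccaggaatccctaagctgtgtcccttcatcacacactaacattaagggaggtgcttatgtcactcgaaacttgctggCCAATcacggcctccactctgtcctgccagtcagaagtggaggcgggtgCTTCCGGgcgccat
Zfp715: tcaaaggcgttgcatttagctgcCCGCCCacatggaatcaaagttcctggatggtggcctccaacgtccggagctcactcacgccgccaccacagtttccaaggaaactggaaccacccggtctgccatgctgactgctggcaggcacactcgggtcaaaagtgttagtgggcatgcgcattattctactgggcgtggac
GGGCGG was found once each before Zfp160, Zfp677 and Zfp715, and none of the 3 motifs was found in the window shown for Zfp54. That gene has 3 listed starts, and only the window of the first is shown.

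Promoter windows of the Zfp genes were less rich in G and C than those of other genes. RefSeq windows of 300 bases, 250 before and 50 after a start, matched 207 of the 251 genes and gave 257 windows, beside 13035 windows of all genes tested. The median G and C content was 55.7% in Zfp windows and 60.7% in all. GGGCGG, searched on both strands, was present in 47.1% of Zfp windows and 61.6% of all, and CCAAT in 45.1% and 37.4%. CCGGAAG was present in 19.8% and 16.6%, AAGATGG, the core of the YY1 site, in 10.1% and 6.80%, CACGTG in 6.23% and 9.96%, and TATAAA in 7.78% and 7.41%.

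Within the family, GGGCGG was in 22 of 39 windows of genes that fell (56.4%), 13 of 18 of genes that rose (72.2%) and 86 of 200 of genes not called (43.0%). The CCAAT letters were in 51.3%, 38.9% and 44.5% of these windows. The longest of the motifs is 7 letters, so that a match describes the letters only, and no motif contains another.

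Some Zfp genes were read by probe sets that can bind related copies. Among the 251, 8 were read by probe sets of the _s_at kind and 12 by the _x_at kind, which Affymetrix marks as matching more than 1 transcript. Leaving these out, 33 of 231 genes fell and 19 rose. A second reading above the filter existed for 27 called genes, and for 22 of them all such readings had the same sign. These were 15 of 17 falls and 7 of 10 rises.

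At the threshold of membership the values were dim and noisy. Just inside, Zfp974 gave 83.7 and 69.7 in Chd4 RNAi and 73.2 and 68.7 in control, and Zfp39 gave 90.6 and 34.8 against 108 and 87.4. Just outside, Zfp420 gave 75.5 and 68.6 in Chd4 RNAi and 69.3 and 62.4 in control. For 6 members the mean of one group lay under the threshold, in Chd4 RNAi for 5 of them and in control for 1, and none of the 6 was called. Of the 51 Zfp genes below the median, 22 were still tested, and none passed in limma, with 2 at an unadjusted p under 0.05. At the bright end were Zfp207, Zfp982 and Zfp622, none of which passed.

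Zinc finger genes with other names are set beside these for comparison. Among 74 tested genes of the Zbtb, Zscan, Zkscan, Klf, Sp and Zic families, 9 rose (12.2%) and 6 fell (8.11%), and 47.3% lay below 0. Over all genes tested these shares were 11.7%, 8.81% and 48.1%. The 74 genes were held to the filter of the test, a signal of 42.4, and not to the median used for the Zfp genes. Their median log2 difference was 0.029. The 2 tested Zic genes both rose, Zic5 to 2244 and 2095 in Chd4 RNAi, against 778 and 787 in control, and Zic2 to 331 and 353 against 72.6 and 52.8. The log2 difference of Zic5 was 1.47. The control mean of Zic2 lay under the median signal, and with that group set at the median Zic2 was 4.73-fold higher. Klf3 had the firmest fall, with 1323 and 1369 in Chd4 RNAi and 2305 and 2250 in control (log2 -0.76, adjusted p = 4.95e-05). Among 18 Zscan and Zkscan genes, 61.1% lay below 0, with a median of -0.19, 1 rise and 1 fall (5.56% each). The 18 genes at or above the median named Zfp with a number and a letter gave 2 falls (11.1%) and no rise in limma. Of them, 66.7% lay below 0.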

How the data were processed

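RNA of 4 samples, 6 ug each per the labels' protocols, was hybridised to 1-colour Affymetrix arrays. Deposited values are intensity on a linear scale, 1 MAS5 signal per probe set, per the submitters' processing notes; its version and scaling target are not given in the sources used here. A mean with 2% trimmed from each tail was 496.5 to 497.2 on every array. Groups came from the sample titles, and the series design describes them as biological duplicates. Of 45037 non-control probe sets, 34945 had 1 gene symbol in the platform annotation and were used, each gene by its brightest probe set.

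Genes in the top 60% of probe sets (signal 42.4 or more), 12615 in all, were fitted on log2 signal in limma 3.58.1 (R 4.3.3) with an intensity trend, two-sided, with Benjamini-Hochberg adjustment over all of them and a threshold of 0.05. No pseudocount was added. Differences are Chd4 RNAi minus control, with standard errors from the fit. The fit was tested on simulated data. Detection calls were not used, and 4 arrays limit the precision.

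The members, gene lists and tests were chosen with earlier results of these data known. The rule for naming genes took the 15 largest called changes in each direction with groups apart, and the members of 5 role lists. It also took 3 genes each just inside and outside the threshold and the brightest 3. Among KAP1 partners and other zinc finger families it took up to 4 of smallest p. Setdb1 and the HP1 genes were added outside the rule. Some genes under this rule, among them Zfp386, Zfp346, Zfp830 and Klf17, are not described above. Further called genes are named as neighbours or as holding without each array, and the neighbour runs, signal ranges and motifs were chosen after the values were seen.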

Additional observations from a re-analysis of the deposited data

How the results depend on the processing

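The calls depend on the variance model and on single arrays, while the median of the Zfp genes stayed below 0 in every alternative tried. Against 54 calls (34 lower and 20 higher), a fit without the intensity trend gave 5 (4 lower and 1 higher), among 421 over all genes in place of 2592. Averaging the probe sets of a gene gave 24 (18 and 6), with a median log2 difference of -0.14 in place of -0.12. A floor at the median signal gave 13 (9 and 4), and here genes at the floor on all arrays have no spread. Without a filter the genes called higher were 11. The replicate number as a replicate block left 13 higher; same-numbered arrays shared only a number (correlation of their deviations 0.018), and 12 of the 54 calls were lost. Leaving out 1 array gave 29 to 41 calls, 17 to 29 lower and 8 to 12 higher, with a median of -0.13 to -0.095. The lowest total, 29, came without control replicate 2 and the next, 32, without control replicate 1. No called Zfp gene changed sign in any alternative. Among 66 named genes, 156 values lost their call and 4 gained one under an alternative. The cause of these losses was not tested. Dim genes had the widest errors, and 4 arrays leave 2 residual degrees of freedom.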
